A study of Homo sapiens with 8 samples.

Results

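The zinc finger gene clusters of chromosome 19 were followed through 4 windows of the hg19 build, chr19:19700000-24500000 (the 19p12 window, 4.8 Mb), chr19:36900000-38500000 (19q13.12, 1.6 Mb), chr19:52000000-54000000 (19q13.41, 2 Mb) and chr19:56000000-59100000 (19q13.43, 3.1 Mb). Peaks of all 8 libraries were merged wherever they shared at least 1 bp, and every merged region that overlapped a window was kept. This gave 294 regions of 80588 in the series, or 0.365%, and of 2577 on chromosome 19. There were 76 regions in 19p12, 44 in 19q13.12, 58 in 19q13.41 and 116 in 19q13.43. Regions were kept by position alone, in windows that were chosen with earlier results of these data known.

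Zinc finger genes with a KRAB domain arose by repeated local duplication, which is why they stand in tandem clusters on this chromosome. Their proteins bind DNA through arrays of C2H2 zinc fingers, many of them at transposable elements, and recruit the corepressor TRIM28 (KAP1), which brings in histone H3 lysine 9 methylation. The clusters themselves often carry that repressive mark over the gene bodies while the promoters stay open. In the RefSeq gene table (GRCh38.p14), 250 of 517 protein-coding genes with a ZNF symbol, or 48.4%, lie on chromosome 19. The windows also hold genes of other families, and the regions are identified by position without assignment to genes, as no hg19 gene annotation was used here.

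Open chromatin was mapped by ATAC-seq, an assay that uses the Tn5 transposase to tag accessible DNA with sequencing adapters. The cells were KOSC-2, which the labels call radiosensitive, and HSC-3, which they call radioresistant, both established lines of oral squamous cell carcinoma. Each line received 8 Gy or 0 Gy of radiation and was frozen 24 hours later, which gave 2 libraries for each of KOSC-2 at 8 Gy, KOSC-2 at 0 Gy, HSC-3 at 8 Gy and HSC-3 at 0 Gy. The series was designed to compare lines of differing radiosensitivity with and without irradiation. Each class is 1 line, so a difference between lines and a difference in radiosensitivity cannot be told apart, and since the labels do not say whether replicates were separate cultures, the spread behind each p-value may be technical. Line identity was not checked against marker genes, because that needs gene positions of the same build.

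The lists held 38234 to 51693 peaks in KOSC-2 and 22504 to 43089 in HSC-3 on chromosomes 1 to 22 and X. The background level that the peak caller used, the measure of depth at hand, was 24.3 to 64.8 reads per 10 kb in KOSC-2 and 20.2 to 42.6 in HSC-3. No library called a summit of fewer than 5 to 9 reads, which sets the limit of detection. Enrichment over background at the regions called in all 8 libraries was 25.7 in KOSC-2 0 Gy replicate 1, 21.9 in HSC-3 8 Gy replicate 1 and 34.7 in HSC-3 0 Gy replicate 2, against 49.6 to 67.3 in the other libraries, and results that rest on these 3 libraries are also given without them. Each library had its own peak list, so a region counts as open in a library where its list has a peak there. The fold enrichment of a peak over the background of its own library is the authors' value, and strength is given as the percentile of a peak's p-value within its own list, where a percentile near 100 is among the strongest peaks.

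The regions called in all 8 libraries formed the shared core of the windows. They numbered 65 of 294, or 22.1%, where 15.9% of all merged regions of the series were called in all 8 libraries. Their share differed between windows, with 5 of 76 (6.58%) in 19p12, 6 of 44 (13.6%) in 19q13.12, 14 of 58 (24.1%) in 19q13.41 and 40 of 116 (34.5%) in 19q13.43, against 328 of 2283 (14.4%) on the rest of chromosome 19. Median strength of these shared regions was alike in the 4 windows, at the 74.8th, 72.2nd, 72.3rd and 71.4th percentile in the order given, against the 76.1st over the series.

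In 19p12 the last of the 5 shared regions had its midpoint 187 kb from the start of the window. The strongest, chr19:19886988-19887829, had a fold enrichment of 15.4 and 17.5 in KOSC-2 8 Gy, 14.4 and 16 in KOSC-2 0 Gy, 10.6 and 15.2 in HSC-3 8 Gy, and 14 and 10.7 in HSC-3 0 Gy, with a mean percentile of 94.2. The next, chr19:19774030-19775147, was also the widest at 1118 bp (mean percentile 87.8). Both sit near the edge of the window. The percentile of the first was 80.6 to 99.3 over the 8 lists and that of the second 56.9 to 98.1, lowest in HSC-3 0 Gy replicate 2.

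In the other windows the shared regions were spread more widely. Even so, 5 of the 6 in 19q13.12 lay within 300 kb of one or the other edge. In 19q13.41 it was 4 of 14 and in 19q13.43 19 of 40. In 19q13.12 the strongest were chr19:38396948-38398199 and chr19:38422607-38423412 (mean percentiles 77.1 and 75.7), and the widest was chr19:36979790-36981051 with 1262 bp. In 19q13.41 the strongest was chr19:52692697-52693811 (94.5), followed by chr19:52598823-52599372 (84.2), and the widest was chr19:52551649-52552818 with 1170 bp. In 19q13.43 the strongest pair lay far apart, at chr19:56631884-56633217 (91.2) and chr19:59055114-59056401 (91.1), and the widest was chr19:56164995-56166853 with 1859 bp. The 40 shared regions of 19q13.43 followed each other at a median distance of 25.8 kb, against 83.1 kb over the series.

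**Figure D1:**
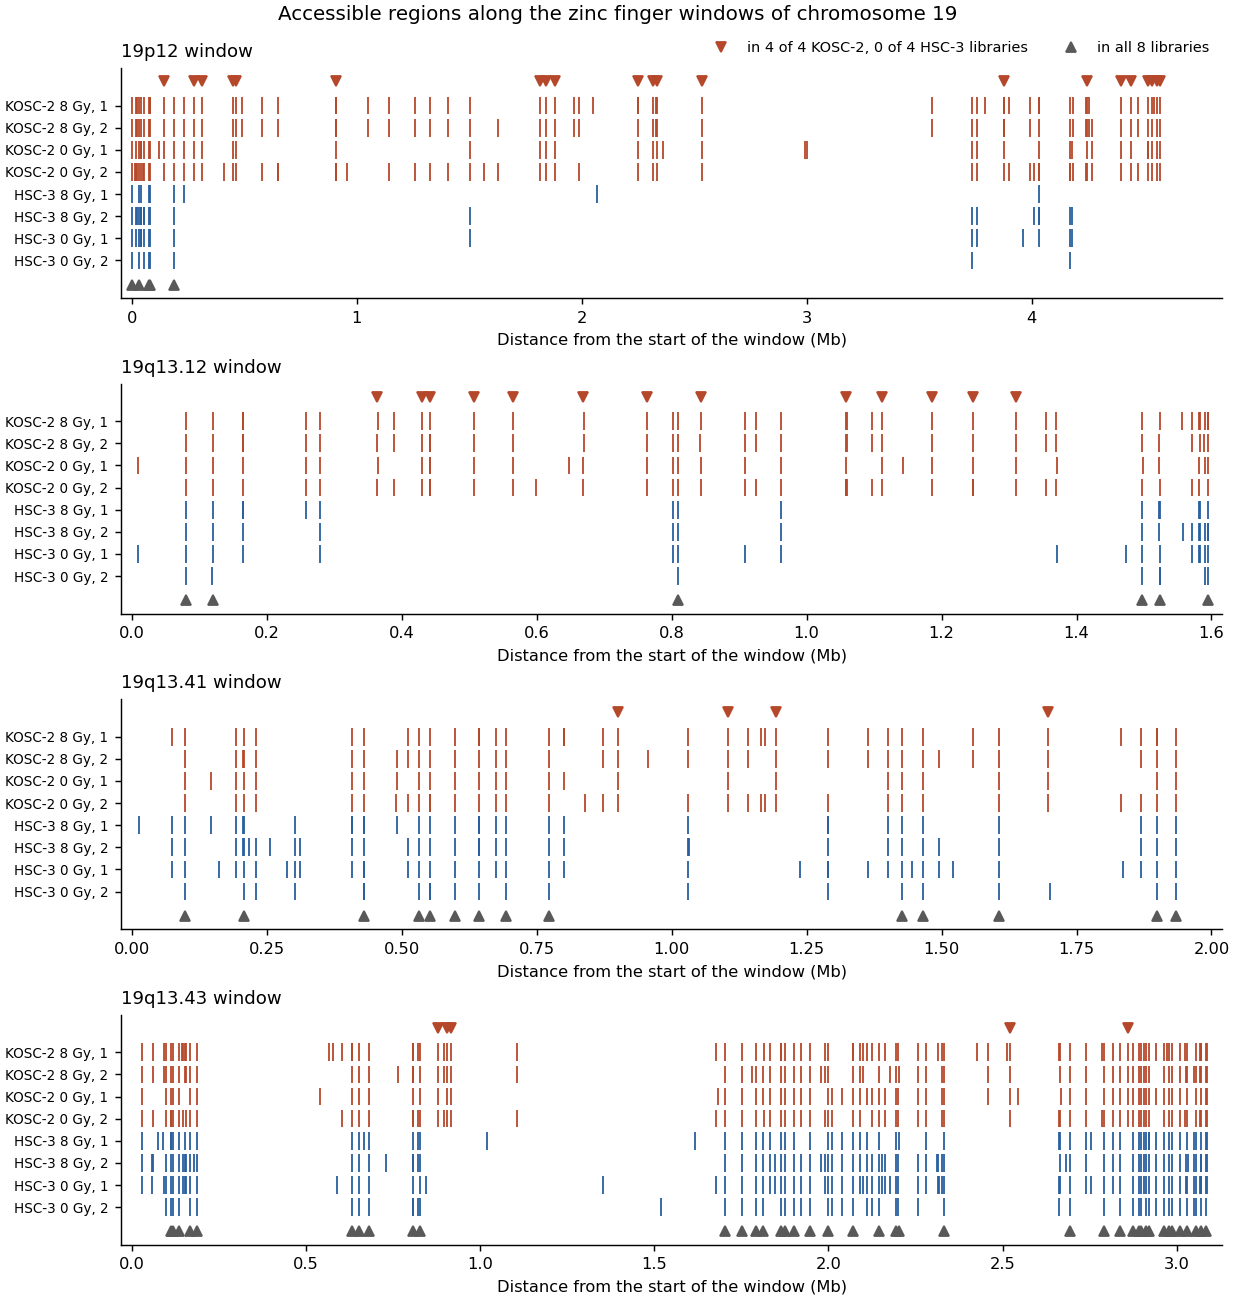
Peaks of each library along the 4 windows, with distance from the start of the window in Mb on the horizontal axis and a row for each library (KOSC-2 red, above HSC-3 blue; 8 Gy above 0 Gy within a line). Triangles above mark the 43 regions called in 4 of 4 KOSC-2 and 0 of 4 HSC-3 libraries, triangles below the 65 regions called in all 8; in 19p12 the 5 shared regions stand at the left edge, while KOSC-2 peaks continue along the window.

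The lines differed in how many accessible regions they had in 19p12. KOSC-2 had 62 and 58 peaks at 8 Gy and 43 and 60 at 0 Gy, while HSC-3 had 9 and 19 at 8 Gy and 16 and 8 at 0 Gy. Every KOSC-2 library was above every HSC-3 library. As a share of all peaks of a library, which allows for the length of the list, 19p12 held 0.125% ± 0.0111 in KOSC-2 and 0.0391% ± 0.00417 in HSC-3 (SD, n = 4 each), a ratio of 3.21. The difference of 0.0862 percentage points gave p = 0.0286 in an exact two-sided permutation test of 4 against 4 libraries, the smallest it can give, and 0.0429 after Benjamini-Hochberg adjustment over 6 shares.

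19q13.12 differed in the same direction. It had 38 and 36 peaks in KOSC-2 at 8 Gy, 32 and 37 in KOSC-2 at 0 Gy, 15 and 16 in HSC-3 at 8 Gy, and 18 and 8 in HSC-3 at 0 Gy, again without overlap between the lines. Its share was 0.0809% ± 0.00512 in KOSC-2 and 0.0452% ± 0.0148 in HSC-3 (ratio 1.79; SD over 4 libraries of a line; exact permutation test, adjusted p = 0.0429). Non-overlapping shares with KOSC-2 higher were found in 15.8% of 1231 2 Mb bins of the genome that held at least 20 regions. Lack of overlap was therefore common. A ratio of mean shares as high as that of 19p12 was found in 15 of 1229 such bins, and a ratio as high as that of 19q13.12 in 58 of 1229. Bins without any HSC-3 peak, where KOSC-2 stands furthest above HSC-3, give no ratio and are not among the 1229. A bin can itself lie in a window.

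The 2 windows nearer the end of the long arm did not share this direction. 19q13.43 had 91 and 75 peaks in KOSC-2 at 8 Gy, 68 and 76 in KOSC-2 at 0 Gy, 65 and 78 in HSC-3 at 8 Gy, and 81 and 53 in HSC-3 at 0 Gy, counts that overlap between the lines. As a share of the library it was lower in KOSC-2, at 0.174% ± 0.00494, against 0.222% ± 0.0483 in HSC-3 (SD over 4 libraries; exact permutation test, adjusted p = 0.0429), and the shares did not overlap, as in 17.8% of bins with HSC-3 higher. 19q13.41 held 0.0757% ± 0.00599 in KOSC-2 and 0.0991% ± 0.0293 in HSC-3, a difference that did not pass the test (exact permutation test, p = 0.0857, adjusted p = 0.103). The 4 windows together held 0.456% ± 0.0178 in KOSC-2 and 0.406% ± 0.0899 in HSC-3 (exact permutation test, p = 0.286), so the sum of the windows hid differences of opposite sign. Without HSC-3 8 Gy replicate 1, whose 19q13.43 and 19q13.41 shares were the highest, this sum differed between the lines by 0.0949 points (exact permutation test, adjusted p = 0.0343).

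**Figure D2:**
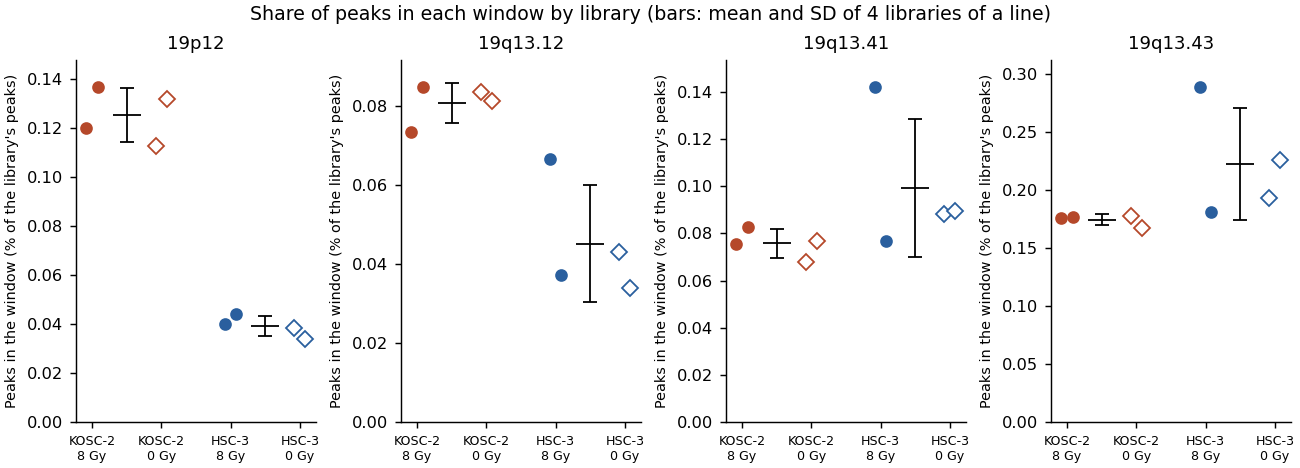
Percent of a library's peaks that lie in each window, with a point for each library (KOSC-2 red, left of HSC-3 blue; filled 8 Gy, open 0 Gy) and bars for the mean and SD of the 4 libraries of a line; each panel has its own vertical axis from 0. In 19p12 the KOSC-2 libraries average 0.125% and the HSC-3 libraries 0.0391%, while in 19q13.43 the order is turned round at 0.174% and 0.222%.

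These tests stand at the smallest raw p that the design allows, and some alternatives ended the calls. With a −log10 q of at least 5, with lists of equal length or with the stronger peaks alone (those past the 50th percentile), the shares kept their direction in 19p12, 19q13.12 and 19q13.43, with adjusted p of 0.0571 to 0.0686. The raw p of 19p12 and 19q13.12 stayed at 0.0286 under each of these settings (exact permutation tests), so there only the adjusted p changed. Leaving out any 1 KOSC-2 library gave adjusted p of 0.114 in 19p12 and 19q13.12 and of 0.171 to 0.214 in 19q13.43, while leaving out any 1 HSC-3 library kept the 3 calls (adjusted p = 0.0343 to 0.0429, exact permutation tests); without HSC-3 8 Gy replicate 1 the 19q13.43 difference was −0.0255 points, against −0.0477 with it. Without the 3 libraries of low enrichment the differences were 0.0884 points in 19p12, 0.0399 in 19q13.12 and −0.0138 in 19q13.43, with p = 0.1 in each, the smallest p for 3 against 2 libraries in an exact permutation test.

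The windows also differed from each other within libraries. Peak density averaged 7.16 ± 4.96 peaks per Mb in 19p12, 15.6 ± 7.48 in 19q13.12, 16.1 ± 2.99 in 19q13.41 and 23.7 ± 3.69 in 19q13.43 (SD, n = 8 libraries). In an exact sign-flip test over the 8 libraries, 5 of the 6 pairs of windows differed (adjusted p = 0.00938 each), and 19q13.12 and 19q13.41 did not pass (p = 0.406). Every KOSC-2 library had more peaks per Mb in 19q13.12 than in 19q13.41, and every HSC-3 library had fewer. For this pair, pooling the lines therefore hid differences of opposite sign. Libraries of a line share its genome, so the test covers the spread between these libraries only. Without the 3 libraries of low enrichment the 5 pairs each had p = 0.0625, the smallest that 5 libraries allow in an exact sign-flip test, and an adjusted p of 0.075. 19p12 had the fewest and 19q13.43 the most peaks per Mb in each library.

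How far 19p12 lay below 19q13.43 depended on the line. On the log2 scale of peaks per Mb, with 0.5 added to each count, 19p12 stood 1.11 ± 0.15 below 19q13.43 in KOSC-2 and 3.07 ± 0.35 below it in HSC-3 (SD, n = 4 each), a difference between lines of 1.96. For 19q13.12 against 19q13.43 the difference between lines was 1.18, for 19p12 against 19q13.41 it was 1.99, for 19q13.12 against 19q13.41 it was 1.21, and for 19p12 against 19q13.12 it was 0.78. These 5 comparisons, added after the values of the windows had been seen, each gave p = 0.0286 and an adjusted p of 0.0343 in exact permutation tests over the libraries. The last of them gave an adjusted p of 0.0686 without any 1 KOSC-2 library, and all 5 gave 0.12 without the 3 libraries of low enrichment. For 19q13.41 against 19q13.43 the difference between lines was −0.03 (exact permutation test, p = 0.8), and its direction changes with the library left out. Within the lines, 19q13.12 minus 19q13.41 was 0.416 ± 0.142 in KOSC-2 and −0.790 ± 0.153 in HSC-3 (SD, n = 4 each), so the order of these windows was reversed.

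Regions called in 4 of 4 KOSC-2 and 0 of 4 HSC-3 libraries are called KOSC-2-only here. They made up 43 of the 294 regions, or 14.6%, where 2.07% of all regions of the series and 70 of 2283 (3.07%) on the rest of chromosome 19 were of this class. By window there were 21 of 76 (27.6%) in 19p12, 13 of 44 (29.5%) in 19q13.12, 4 of 58 (6.90%) in 19q13.41 and 5 of 116 (4.31%) in 19q13.43. Over 1231 bins of 2 Mb the median share was 1.43%, the 95th percentile 7.36% and the highest 31.0%. Only 2 of these bins reached the share of 19p12 or of 19q13.12, and 1 of those 2 lies within 19p12 itself. The counts depend on how a call is made: lists of equal length left 16 KOSC-2-only regions in the windows (8.16%, against 1.68% in the series), peaks above the 50th percentile left 14 (7.73%, against 2.64%), and calls in at least 3 of 4 KOSC-2 libraries gave 65 (22.1%, against 6.22%). Without the 3 libraries of low enrichment there were also 65 (23.6%, against 6.12%), and without KOSC-2 0 Gy replicate 1 alone the count in 19p12 was 32 of 72 (44.4%, against 5.55%).

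The reverse class, called in 4 of 4 HSC-3 and 0 of 4 KOSC-2 libraries, had 1 member, or 0.340%, near the 0.300% of the whole series. It was chr19:52302591-52303206 in 19q13.41, with a fold enrichment of 6.29 and 12.3 in HSC-3 at 8 Gy and 10.3 and 7.30 at 0 Gy. All 5 regions of 19p12 and all 6 of 19q13.12 that were called in 4 of 4 HSC-3 libraries were called in every KOSC-2 library too. Most such regions of the series did the same, 12827 of the 14572 called in 4 of 4 HSC-3 libraries. Of those 14572, 14330 were called in some KOSC-2 library.

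**Figure D3:**
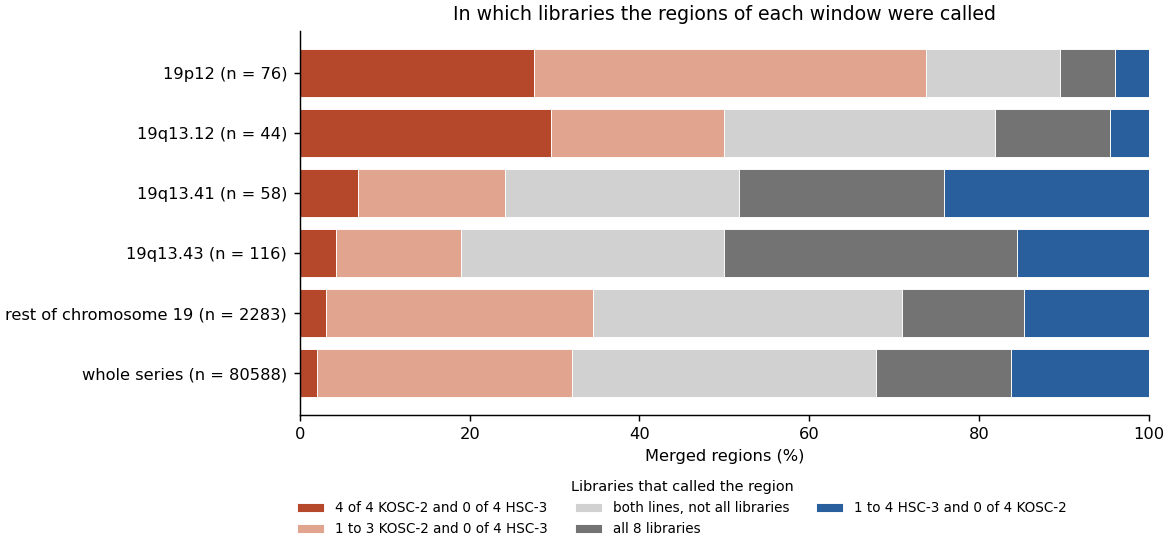
Percent of the merged regions of each window, of the rest of chromosome 19 and of the whole series by the libraries that called them; the number of regions stands beside each bar. KOSC-2-only regions (dark red) make up 27.6% and 29.5% in 19p12 and 19q13.12, against 2.07% in the series, and regions called in all 8 libraries (dark grey) 34.5% in 19q13.43.

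The same regions can be counted from those open in all KOSC-2 libraries, a set chosen by its KOSC-2 calls, so the counts restate the KOSC-2-only class and only the values of single HSC-3 libraries add to it. Of 36 such regions in 19p12, 15 (41.7%) were called in any HSC-3 library, of 26 in 19q13.12 there were 13 (50.0%), of 23 in 19q13.41 there were 19 (82.6%) and of 58 in 19q13.43 there were 53 (91.4%), against 781 of 851 (91.8%) on the rest of chromosome 19 and 93.5% in the series. Each HSC-3 library was below its own level over the series in 19p12 and 19q13.12. In 19p12 the 8 Gy libraries of HSC-3 called 19.4% and 38.9% of these regions and the 0 Gy libraries 36.1% and 22.2%, where the same libraries called 61.4% and 87.4%, and 88.0% and 63.4%, over the series. In 19q13.12 they called 42.3% and 38.5% at 8 Gy and 46.2% and 23.1% at 0 Gy. In 19q13.43 they called 84.5% and 91.4% at 8 Gy and 91.4% and 74.1% at 0 Gy, in every library above its own level over the series.

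**Figure D4:**
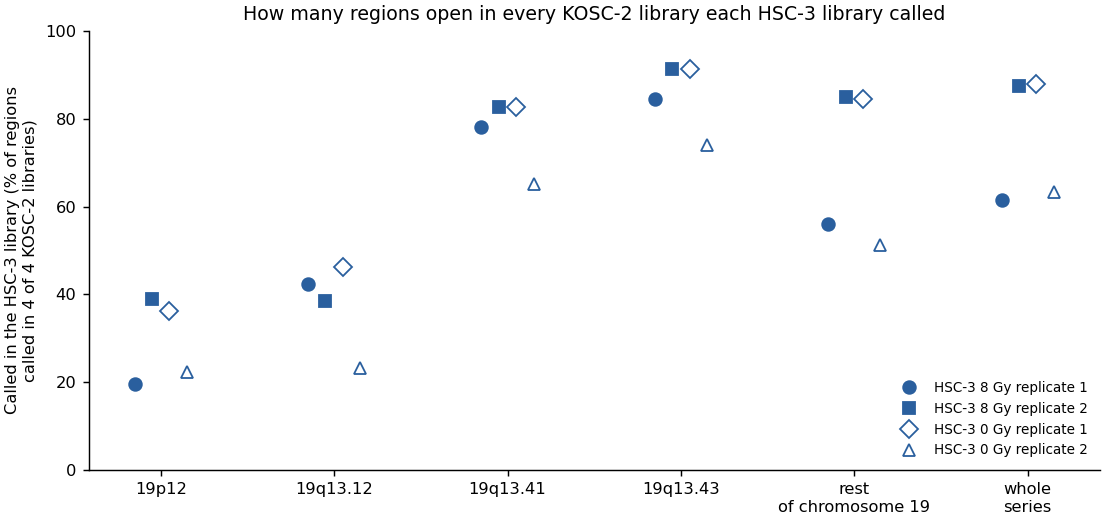
Regions that all 4 KOSC-2 libraries called, and the percent of them that each HSC-3 library called too, for each window, the rest of chromosome 19 and the whole series (filled symbols 8 Gy, open symbols 0 Gy). All 4 libraries lie at 19.4% to 38.9% in 19p12 and at 23.1% to 46.2% in 19q13.12, and at 61.4% to 88.0% over the series.

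By their medians, the KOSC-2-only regions of 19p12 and 19q13.12 were not weak peaks, though some of them were weak. In each of these windows 4 lay in the weakest quartile of the series' regions called in 4 of 4 KOSC-2 libraries. The weakest, in 19p12, had a mean percentile of 14.2. Median strength of the KOSC-2-only regions was the 63.7th percentile in 19p12 and the 62.9th in 19q13.12. It was the 36.5th for the 4 regions of 19q13.41 and the 59.4th for the 5 of 19q13.43. On the rest of chromosome 19 it was the 40.1st, and over the series the 43.4th. Among regions open in all KOSC-2 libraries with a strength above the series median, 10 of 19 (52.6%) in 19p12 and 6 of 13 (46.2%) in 19q13.12 were KOSC-2-only. None of 11 in 19q13.41 and none of 24 in 19q13.43 was, against 7 of 402 (1.74%) on the rest of chromosome 19 and 186 of 12819 (1.45%) in the series. At the summit, the 34 KOSC-2-only regions of 19p12 and 19q13.12 had a median pileup of 44 and 33 reads in KOSC-2 at 8 Gy and of 21 and 35.5 reads at 0 Gy, and the lowest single pileup was 11. They were also wide, with a median of 775 bp in 19p12 and 885 bp in 19q13.12, against 603 bp over the series.

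The strongest KOSC-2-only region of 19p12 was chr19:24256557-24257092, near the far end of the window. Its fold enrichment was 13.2 and 13.7 in KOSC-2 at 8 Gy and 9.90 and 13.97 at 0 Gy, and its percentile in those lists was 79.1 to 88.0. No HSC-3 library had a peak there. The next, chr19:19843425-19844419, had a fold enrichment of 12.4 and 11.1 at 8 Gy and 8.37 and 14.4 at 0 Gy in KOSC-2. It lay between a pair of regions that all 8 libraries called, and no HSC-3 library had a peak in it.

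In 19q13.12 the strongest KOSC-2-only region was chr19:37742260-37743144, with a fold enrichment of 14.2 and 16.9 in KOSC-2 at 8 Gy and 9.25 and 15.6 at 0 Gy. In the 4 KOSC-2 lists its mean percentile was 86.2, against 81.3 for the strongest region that all 8 libraries shared in that window. A region called in 4 KOSC-2 and 3 HSC-3 libraries there, chr19:37861441-37862359, reached 90.1 in those lists. The second KOSC-2-only region, chr19:38085118-38086328, had a fold enrichment of 13.3 and 12.6 at 8 Gy and 9.69 and 10.3 at 0 Gy (mean percentile 83.0). The strongest KOSC-2-only regions elsewhere were weaker, at chr19:53104269-53104699 (41.5) and chr19:53696186-53696829 (40.9) in 19q13.41 and at chr19:56879320-56880075 (62.5) and chr19:56904523-56905355 (61.8) in 19q13.43.

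**Figure D5:**
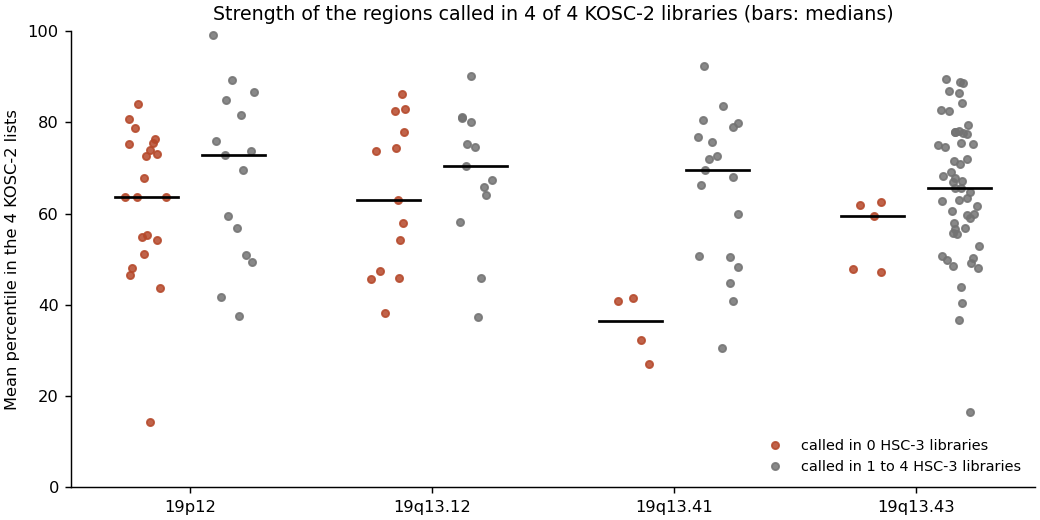
Mean percentile in the 4 KOSC-2 lists of each region called in 4 of 4 KOSC-2 libraries, by window, with regions called in 0 HSC-3 libraries in red (left) and in 1 to 4 HSC-3 libraries in grey (right); bars are medians. The red points of 19p12 and 19q13.12 reach the 84.0th and 86.2nd percentile, while those of 19q13.41 stay at or below the 41.5th.

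Many KOSC-2-only regions of 19p12, 19q13.12 and 19q13.43 lay in unbroken runs, while 19q13.41 held no run of 3 or more. A run is a series of KOSC-2-only regions uninterrupted by any other region that a whole line (all 4 of its libraries) called. The runs thus partly restate how common KOSC-2-only regions are in a window. The windows held 6 of the 59 runs of 3 or more regions in the series and 5 of the 18 runs of 5 or more. In 19p12 they were chr19:19976386-20607980 with 5 regions, chr19:21512022-22235479 with 7 and chr19:23945541-24270411 with 7. Counting every region inside them, KOSC-2 libraries made 32, 37 and 37 calls there and HSC-3 libraries 0, 1 and 0. In 19q13.12 the runs were chr19:37263545-37664003 with 7 regions (33 calls by KOSC-2 and 0 by HSC-3) and chr19:37957691-38210978 with 5 (27 and 0). The run of 19q13.43, chr19:56879320-56915961, was short, with 3 regions in 36.6 kb (15 and 0). No run of HSC-3-only regions was found in the windows.

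The median distance between neighbouring KOSC-2-only regions was 71.5 kb in 19p12, 64.6 kb in 19q13.12, 203 kb in 19q13.41 and 181 kb in 19q13.43, against 232 kb on the rest of chromosome 19 and 722 kb over the series. Beyond the last shared region of 19p12, from 19887830 to the end of the window, 4.61 Mb held 62 regions, with 174 calls by KOSC-2 and 20 by HSC-3. In this stretch 11 regions had any HSC-3 call, and 20 were KOSC-2-only. The longest stretch without a shared region in 19q13.12, of 0.688 Mb, had 49 calls by KOSC-2 and 10 by HSC-3, while that of 19q13.41, of 0.653 Mb, had 39 and 19, and that of 19q13.43, of 0.876 Mb, had 21 and 6.

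The background around the shared regions moved with the lines too. At the regions called in all 8 libraries, the local background of the peak caller relative to its median over all such regions of the series in the same library was 1.25 to 1.42 in KOSC-2 and 0.734 to 1.14 in HSC-3 in 19p12, and 0.761 to 0.941 in KOSC-2 and 0.898 to 1.10 in HSC-3 in 19q13.12. It was 0.411 to 0.444 in KOSC-2 and 0.635 to 0.694 in HSC-3 in 19q13.41, and 0.665 to 0.917 in KOSC-2 and 1.06 to 1.35 in HSC-3 in 19q13.43. At these regions the background thus had the direction of the share of peaks in 19p12, 19q13.41 and 19q13.43 and the opposite direction in 19q13.12. The values rest on 5 regions in 19p12, 6 in 19q13.12, 14 in 19q13.41 and 40 in 19q13.43. The last of the 5 in 19p12 lies 187 kb from the window start, so the rest of that window is not covered. DNA copy number was not measured here, and the part of this background in the counts of peaks was not tested.

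Over all 4 windows together, no line difference in the size or strength of peaks passed the test. Of all the bases that a library's peaks covered, 0.489% ± 0.0353 lay in the windows in KOSC-2 and 0.431% ± 0.0664 in HSC-3 (SD, n = 4 each). The median width exceeded that of the whole list by 85.9 ± 40.3 bp in KOSC-2 and 45.9 ± 46.8 bp in HSC-3, and the median percentile was 57.8 ± 3.68 in KOSC-2 and 60.0 ± 11.2 in HSC-3. The windows held 12.9% ± 0.328 of the chromosome 19 peaks in KOSC-2 and 13.45% ± 2.01 in HSC-3. None of these 4 measures passed (exact permutation tests, adjusted p = 0.457 to 0.714). On the rest of chromosome 19 KOSC-2 had 3.07% ± 0.0754 of its peaks and HSC-3 2.60% ± 0.276 (adjusted p = 0.0429, exact permutation test).

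No difference between doses was detectable in the windows. In 19p12 the libraries of 8 Gy held 0.120% and 0.137% of their peaks in KOSC-2 and 0.0400% and 0.0441% in HSC-3, against 0.112% and 0.132% in KOSC-2 and 0.0382% and 0.0341% in HSC-3 at 0 Gy. In KOSC-2 the doses overlapped, and in HSC-3 both 8 Gy libraries were above both 0 Gy libraries by a mean of 0.00593 points. With labels exchanged within each line, an exact permutation test of 8 Gy against 0 Gy gave raw p from 0.389 upwards and adjusted p of 0.833 for all 6 shares, and adjusted p of 0.889 to 1 for the other 4 measures. The smallest p that this design can give is 0.0556, so no dose result could pass 0.05.

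Regions called in both 8 Gy libraries and neither 0 Gy library of KOSC-2 (gained) numbered 13, or 4.42%, where 3.51% of all regions of the series were gained. There were 7 of 76 (9.21%) in 19p12, 1 of 44 (2.27%) in 19q13.12, 2 of 58 (3.45%) in 19q13.41 and 3 of 116 (2.59%) in 19q13.43. They were weak, with a median percentile of 18.8 in the 8 Gy lists, against 24.9 for gained regions of the series. The strongest, chr19:20748412-20748854 in 19p12, had a fold enrichment of 9.87 and 9.94 in the 8 Gy libraries. Leaving out KOSC-2 8 Gy replicate 1 or 2 gave 22 and 30 gained regions, and leaving out KOSC-2 0 Gy replicate 2 gave 45. With 1 library of a dose left the rule is looser, which by itself lets the count rise.

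The reverse class of KOSC-2, called in both 0 Gy libraries and neither 8 Gy library, had 1 member, against 0.870% of the series. It was chr19:58011007-58011466, with a fold enrichment of 5.77 and 6.18 in the 0 Gy libraries of KOSC-2 and of 7.02 to 15.0 in the 4 HSC-3 libraries, which all called it. In HSC-3, 1 region was gained, against 0.680% of the series, at chr19:52205516-52206516 with a fold enrichment of 3.34 and 5.51 at 8 Gy, and KOSC-2 8 Gy replicate 2 called it too. None was lost in HSC-3, against 0.957% of the series. Leaving out a library of the line loosens these rules to 1 library of its dose, which by itself lets the counts rise. The counts that follow have no share of the series under the looser rule beside them. KOSC-2 lost regions numbered 13 without KOSC-2 0 Gy replicate 2 and 9 without KOSC-2 0 Gy replicate 1. Without KOSC-2 8 Gy replicate 1 and 2 they numbered 4 and 3. HSC-3 gained regions numbered 15 and 12 without HSC-3 8 Gy replicate 1 and 2, 27 and 2 without HSC-3 0 Gy replicate 1 and 2, and 0 without KOSC-2 8 Gy replicate 2. HSC-3 lost regions numbered 1 and 9 without HSC-3 8 Gy replicate 1 and 2, and 2 and 21 without HSC-3 0 Gy replicate 1 and 2.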

How the data were processed

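ATAC-seq peak lists of 8 libraries were analysed, 1 list per library. Per the submitters' processing notes, the build was hg19 and the tools were MACS2 2.2.6, SAMtools 1.9, Bowtie2 2.3.4.2, FastQC 0.11.7 and deepTools. The sources used here do not give their roles or settings, how duplicates were treated, or whether reads were shifted for the Tn5 cut, which would move peak edges by a few bases. For each peak the authors deposited a score (not used here), a fold enrichment (a ratio over the background of its own library), and −log10 values of p and q. These belong to 1 library each and served only for ranking, filtering and description inside that library's list.

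Only chromosomes 1 to 22 and X entered. Fold and p together gave the summit pileup and the background, within 0.001 of the deposited −log10 p for 100% of peaks. No read totals were used, so no counting intervals are given.

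The line comparison was an exact two-sided permutation test of 4 against 4 libraries (70 assignments), doses by exchange within each line (36 assignments), and windows by sign flips over 8 libraries, with Benjamini-Hochberg adjustment and a threshold of 0.05. Counts of regions got no test. Regions were named by rule: in each window the strongest pair and the widest of those called in all 8 libraries and up to 2 of each line-only class, the strongest gained and lost region of each line, and every run of 3 or more. The windows, classes and tests were chosen with earlier results of these data known, so they are not independent support for them. The 2 Mb bins, the strength of line-only regions, the calling rates, the stretches without shared regions and the local background were added as descriptions. Same-numbered libraries were not paired: the correlations of their deviations ran from −0.154 to 0.0332.

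Alternatives were lists of equal length (22504 peaks), a −log10 q of at least 5, peaks above the 50th percentile, summits inside the window, calls in 3 of 4 libraries or more, coverage of at least 50% of a region, chromosome 19 peaks as denominator, a replicate block, each library left out, and the 3 libraries of lowest enrichment left out. Gene names, marker genes and sequences were not analysed here. The software was scipy 1.17.1, pandas 2.3.3, matplotlib 3.10.9 and numpy 2.4.6 under Python 3.11.15, and the functions were tested on simulated lists.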

Additional observations from a re-analysis of the deposited data

Results flagged for a closer look

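The share of peaks in 19q13.43 was 0.167% in KOSC-2 0 Gy replicate 2, where the 3 remaining KOSC-2 libraries had 0.176% to 0.178%, a gap large for the range of the 4 values. It was 1 of 20 sets of 4 values examined, and chance marks about 1 such set in 20.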

How the results depend on the processing

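The direction of the line differences in 19p12, 19q13.12 and 19q13.43 was the same under every alternative run, but the tests have few libraries. The calls held without any 1 HSC-3 library and were lost without any 1 KOSC-2 library and under the settings named here. In 19p12 and 19q13.12 the q filter, equal lists and the stronger peaks changed only the adjusted p. Without a KOSC-2 library the shares of the remaining libraries still did not overlap between the lines in these windows. With any 1 library left out the 19p12 difference stayed at 0.0824 to 0.0905 points. An adjusted p also depends on the other shares tested with it. Peaks with too few reads are not in the lists, and a region without a peak is not shown to be closed. With a −log10 q of at least 5, differences in share between lines that no longer passed were 0.0900 (19p12), 0.0344 (19q13.12), −0.0468 (19q13.43) and 0.528 (rest of chromosome 19), and HSC-3-only, HSC-3 gained and HSC-3 lost regions numbered 2, 0 and 1. With lists of equal length the same shares differed by 0.104, 0.04999, −0.0522 and 0.562, the width difference between lines was −12.9 bp and between doses −12.4 bp, and the dose differences in percentile and in percent of chromosome 19 peaks were 3.10 and −0.0891. KOSC-2-only regions then numbered 16 in all windows and 9, 6, 0 and 1 in 19p12, 19q13.12, 19q13.41 and 19q13.43, with 2 HSC-3-only, 4 KOSC-2 gained, 3 KOSC-2 lost and 2 HSC-3 gained. With peaks above the 50th percentile the 4 shares differed by 0.111, 0.0537, −0.0685 and 0.782, the dose difference in 19q13.41 was −0.0017, the width difference between lines −6.13 bp, the dose differences in percentile and in percent of chromosome 19 peaks 7.79 and −0.219, and the line difference was 0.87 (log2; exact permutation test, adjusted p = 0.171) for 19p12 against 19q13.12 and 0.0325 for 19q13.41 against 19q13.43. KOSC-2-only regions then numbered 14 in all windows and 9, 5, 0 and 0 by window, with 8 KOSC-2 gained, 0 HSC-3 gained and 1 HSC-3 lost.

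Without the 3 libraries of lowest enrichment the 4 shares differed by 0.0884, 0.0399, −0.0138 and 0.436, and the percent of chromosome 19 peaks by 1.31. The density differences between windows were −1.16, −1.23, −1.74, −0.59 and −0.52 (19p12 minus 19q13.12, 19q13.41 and 19q13.43, 19q13.12 minus 19q13.43, 19q13.41 minus 19q13.43), and the line by window differences 0.65, 1.70, 1.74, 1.05, 1.09 and 0.0381, none past the threshold, since even the smallest p that 5 libraries allow is above it. KOSC-2-only regions numbered 65 in all windows and 33 in 19p12, and HSC-3-only regions 6. With at least 50% of a region covered there were 2 KOSC-2-only regions in 19q13.43, 0 HSC-3 gained and 1 HSC-3 lost. With calls in at least 3 of 4 libraries KOSC-2-only regions numbered 65 in all windows, 33 in 19p12 and 8 in 19q13.43. With chromosome 19 peaks as denominator the line difference was −0.510 for all windows, −1.12 for 19q13.41, now past the threshold, and 0.510 for the rest of the chromosome, and the dose difference −0.0348 for 19q13.43 and −0.313 for the rest. Summits inside the window changed no call.

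The replicate numbers do not pair the libraries. With a replicate block the differences were 0.0862 (19p12), 0.0357 (19q13.12), −0.0477 (19q13.43) and 0.471 (rest of chromosome 19). Each had p = 0.125 in an exact sign-flip test, the smallest a block of 4 pairs allows. With the numbers of HSC-3 crossed, an alternative chosen after seeing the data, 0 of 10 dose measures passed.

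Leaving out 1 library at a time, the line differences in share ran from 0.0286 to 0.0949 for all windows, 0.0824 to 0.0905 for 19p12, 0.0320 to 0.0428 for 19q13.12, −0.0309 to −0.0090 for 19q13.41 (exact permutation test, adjusted p = 0.0343 without HSC-3 8 Gy replicate 2), −0.0614 to −0.0255 for 19q13.43 and 0.353 to 0.5678 for the rest of chromosome 19. Line by window differences ran from 0.60 to 0.91 for 19p12 against 19q13.12 and from −0.0748 to 0.0326 for 19q13.41 against 19q13.43. KOSC-2-only regions in 19p12 numbered 21 to 32 (32 without KOSC-2 0 Gy replicate 1) and HSC-3-only regions 1 to 2. The line differences ran from −6.67 to 0.911 in percentile and −1.07 to 0.239 in percent of chromosome 19 peaks. The dose differences ran from −0.0104 to 0.0891 for all windows, −0.00235 to 0.0124 for 19q13.12, −0.00287 to 0.0299 for 19q13.41, −0.0122 to 0.0417 for 19q13.43, −4.75 to 36.8 bp in width, −6.31 to 5.07 in percentile and −0.672 to 1.297 in percent of chromosome 19 peaks. Gained and lost regions numbered 13 to 45 and 1 to 13 in KOSC-2 and 0 to 27 and 0 to 21 in HSC-3. Leaving out a library of the line loosens the rule for these classes to 1 library of its dose.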
